A study of Mus musculus with 2 samples.

Results

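Arterial endothelial cells, which line the vessels that carry blood from the heart into the bladder wall, were taken from single-cell RNA sequencing of the bladder of 1 male mouse, and 160 of the 11660 cells used met the rule for them. A cell had to pass an endothelial gate (Pecam1, Cdh5, Egfl7 and Cldn5 at 5 or more of 10000 UMIs together, with at least 2 of the 4 detected), hold few collagen and Dcn UMIs, show fewer than 2 lymphatic genes, and hold at least 2 UMIs of Sema3g, Gja4 and Hey1 together (the 3 rule genes). A UMI is a molecular tag that counts 1 captured transcript once. The cells were thus chosen by measured values, so the levels of the rule and gate genes are descriptions, and so is every difference between arterial and other endothelial cells. The mouse was 25 months old and carried p16-CreERT2 with R26-LSL-tdTomato, a red reporter that is switched on in cells with p16 promoter activity while tamoxifen is given. Tamoxifen was injected on 5 consecutive days and the bladder was taken 2 weeks later. CD45-negative live cells were then sorted by tdTomato fluorescence into a negative (Tom-) and a positive (Tom+) library. Both libraries therefore share the animal, both alleles, the treatment and the dissociation, and there is 1 library for each sort. No comparison has a replicate check. All intervals are 95% intervals of counting error alone.

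Arterial endothelium is set apart from venous and capillary endothelium during development by VEGF and Notch signalling, with the transcription factors Sox17, Hey1 and Hey2 downstream or alongside. The mature cells carry connexins that couple them to each other and to smooth muscle, deposit matrix toward the elastic lamina and release factors that set vessel tone. Cxcl12, a chemokine that binds the receptors Cxcr4 and Ackr3, is a known product of arterial endothelium and of stromal cells.

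The deposited matrices held 13551 Tom- and 2783 Tom+ barcodes with 197232860 and 34455896 UMIs, and 966 barcodes occurred in both. After the cell filter and the rule on shared barcodes, 9919 Tom- and 1741 Tom+ cells were used. Of the arterial cells, 155 were Tom- (median 8165 UMIs, 1745413 in all) and 5 were Tom+ (median 8180 UMIs, 54836 in all). No Tom- arterial cell and 1 Tom+ arterial cell had a barcode that also occurred in the other library. Markers of other cell types were present: 24 of the 155 Tom- arterial cells and 63 of the 381 Tom- blood endothelial cells without a rule UMI held over 20 of 10000 UMIs from urothelial, mesothelial, mural, leukocyte or erythroid marker lists, against 0 of the 5 Tom+ arterial cells. In Tom- arterial cells 10 cells passed that limit for urothelial, 9 for mural and 6 for erythroid markers. All 17 mural markers had a UMI there, 16 of 17 urothelial markers did (Krt14 was at 0), and Ptprc, the gene of CD45, was at 0 in both libraries. Their part in the results was not tested. Values without these cells are given below where a list's calls moved.

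The label was checked against arterial genes outside the rule. Gja5, the arterial connexin 40, was at 61.9 CPM (UMIs per 1000000 captured) in Tom- arterial cells and at 128 CPM in Tom+ arterial cells, and no UMI was found in 381 Tom- other blood endothelial cells, where a count of 0 allows up to 0.778 CPM. Of the 7 Tom+ UMIs, 6 lay in the cell whose barcode also occurred in Tom-, and after thinning to 2000 UMIs no Tom+ arterial cell of 5 held Gja5. Sox17 was at 464 CPM, Efnb2, the arterial ephrin, at 296 CPM and Bmx, a tyrosine kinase of arterial endothelium, at 150.1 CPM in Tom- arterial cells. The venous genes Ackr1 (6.30 CPM) and Selp (11.5 CPM) were near the bottom of the scale in the same cells. Other venous markers were not: all 16 had a UMI in Tom- arterial cells, led by Plvap at 415 CPM. Together the 16 were at 1670 CPM in arterial, 2230 CPM in capillary-type and 5187 CPM in venous-type Tom- cells. After every cell was thinned to 2000 UMIs, Gja5 was found in 12.9% of Tom- arterial cells (34.8% unthinned) and in 0.0472% of urothelial cells (0.130% unthinned), which should lack it. The median depths were 8165 and 37578 UMIs. All 5 marker genes outside the rule (Gja5, Sox17, Efnb2, Bmx and Cxcl12) were higher in arterial than in other blood endothelial cells, but with all cells summed Cxcl12 was not above its capillary-type level, and many of the cells also held capillary genes. The 19 capillary markers together did not part arterial cells (6136 CPM) from other Tom- blood endothelial cells (6352 CPM), which include the capillary-type cells (10596 CPM). Of 17 measured ones, 2 were higher and 3 lower than in those other cells, with a median log2 ratio of -0.01. Over all 9226 measured genes 3.58% were higher and 2.33% lower.

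Sema3g, a secreted semaphorin, is at chr14:31217860-31230352 (GRCm38), Gja4, connexin 37, at chr4:127311421-127314039 and Hey1, a Notch target, at chr3:8663359-8667256. In Tom- arterial cells their levels were 252, 194 and 168 CPM, and in Tom+ arterial cells 201, 182 and 146 CPM. Of the 155 Tom- cells, 38 held 1 of the 3 genes, 72 held 2 and 45 held all 3. In the whole Tom- library, arterial cells (1.56% of the cells) held 76.6% of the Sema3g, 48.9% of the Gja4 and 52.6% of the Hey1 UMIs. The cells were chosen by these genes, so the shares follow in part from the rule and rank no gene as more particular. Lymphatic cells held Gja4 at 66.5 CPM and Hey1 at 23.3 CPM.

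Arterial cells were a far smaller part of blood endothelium in the Tom+ library. They were 155 of 591 blood endothelial cells in Tom- (26.2%, exact Clopper-Pearson interval 22.7 to 30.0) and 5 of 160 in Tom+ (3.13%, 1.02 to 7.14). Cells just outside the threshold, with 1 rule UMI, were equally frequent, at 55 cells (9.31%) and 15 cells (9.38%). Just inside it, with 2 rule UMIs, were 38 Tom- cells and 1 Tom+ cell, and 82 Tom- cells held 5 or more against 2 in Tom+. Venous-type cells (no rule UMI and at least 2 UMIs of Ackr1 and Selp) took 26.4% of Tom- and 48.1% of Tom+ blood endothelium. Capillary-type cells (no rule UMI, at least 2 UMIs of Rgcc, Car4, Cd300lg and Gpihbp1, fewer than 2 of Ackr1 and Selp) took 27.2% and 21.3%. Among cells thinned to 2000 UMIs, 132 of 572 Tom- cells (23.1%) and 7 of 153 Tom+ cells (4.58%) held at least 1 rule UMI, a gap of the same direction at equal depth. Without barcodes present in both libraries the Tom+ share was 4 of 150 (2.67%). The sort itself sets the makeup of each library, and 1 animal gives no spread for these shares.

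**Figure D1:**
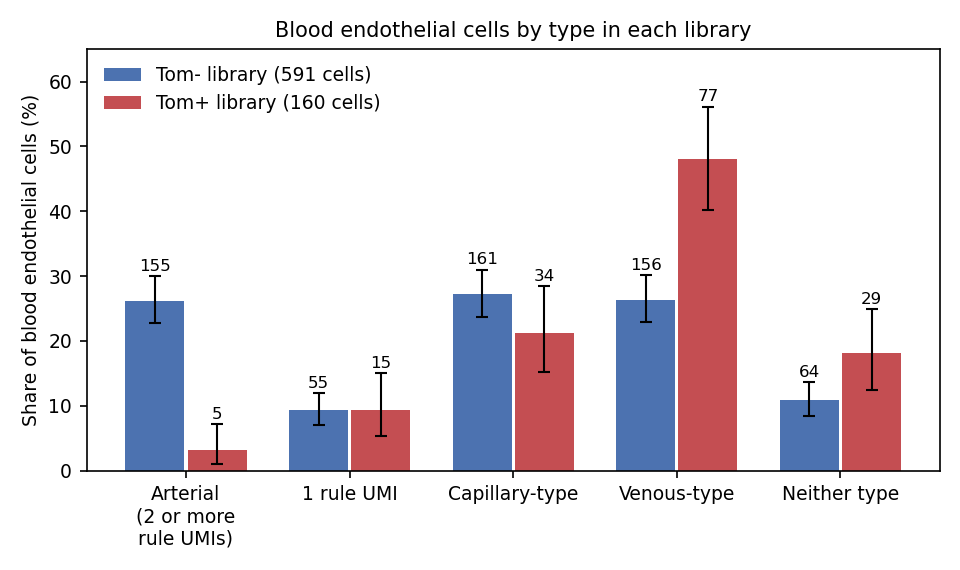
Share of blood endothelial cells (%, y axis) of each type (x axis) in the Tom- library (591 cells) and the Tom+ library (160 cells); bars are shares, error bars exact 95% binomial intervals, and the number over each bar is its cell count. The arterial bar is at 26.2% in Tom- and 3.13% in Tom+, while the cells with 1 rule UMI are at 9.31% and 9.38%.

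The reporter followed the sort labels in arterial cells. tdTomato was at 66.5 CPM (54.9 to 79.7) in Tom- and at 1349 CPM (1060 to 1694) in Tom+ arterial cells, 1 of which held no tdTomato UMI among 5647. In the same Tom+ library venous-type cells were at 2354 CPM and capillary-type cells at 1454 CPM. Cdkn2a, the gene whose p16 promoter drives the Cre, had no UMI in arterial cells of either library, which allows up to 1.72 CPM in Tom- and 54.7 CPM in Tom+. Cdkn1a, the p21 cell-cycle inhibitor, was at 164 CPM in Tom- arterial cells, 201 CPM in venous-type and 134 CPM in capillary-type cells. Of 21 measured genes of the cell-cycle inhibitor and senescence list, Igfbp3 (772 against 289 CPM in other blood endothelium) and Cdkn1c (63.6 against 26.2 CPM) were at least 2 times higher in arterial cells and none was lower, beside 3.58% higher and 2.33% lower over all 9226 measured genes. Without cells rich in markers of other types Igfbp4 joined them, for 3 of 19. At capillary-type cells' 760 CPM, Igfbp3 was as high there as in arterial cells.

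Cxcl12 (chr6:117168535-117181367) was high in arterial and capillary-type cells alike. Tom- arterial cells held 1166 CPM (1116 to 1218), capillary-type cells 1164 CPM (1108 to 1222), venous-type cells 105.6 CPM (91.6 to 121) and lymphatic cells 89.2 CPM. With all cells summed, the order therefore put arterial and capillary-type cells together, with overlapping intervals (interval of the ratio 0.938 to 1.07), and venous-type cells well below (interval of the ratio 9.55 to 12.8). The arterial sum includes 10 deep cells with epithelial leading genes (sub-cluster 4 below), where Cxcl12 was at 230 CPM, a level below that of the sum. Without cells rich in markers of other types, Cxcl12 in arterial cells was still within 2 times of its capillary-type level. Against all other blood endothelial cells the ratio was 2.39 (2.24 to 2.54), from the summed UMIs of venous-type cells, capillary-type cells and 64 cells of neither type. Arterial cells gave 45.3% of the Cxcl12 UMIs of Tom- blood endothelium but 6.70% of those of the whole Tom- library, in which the fibroblast class gave 76.4%. Cxcr4, the signalling receptor, was at 40.7 CPM in arterial, 33.3 CPM in capillary-type and 0.520 CPM in venous-type Tom- cells, the last from 1 UMI. Ackr3, which scavenges the chemokine, was at 71.0, 111 and 36.9 CPM. Of 7 measured chemokine genes, Cxcr4, Cxcl12 and Cx3cl1, the membrane-bound fractalkine (99.1 against 48.2 CPM), were at least 2 times higher than in other blood endothelium, and Ackr1 was lower. Cxcl1 was also lower without cells rich in markers of other types. Among all 9226 measured genes 3.58% were higher and 2.33% lower.

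**Figure D2:**
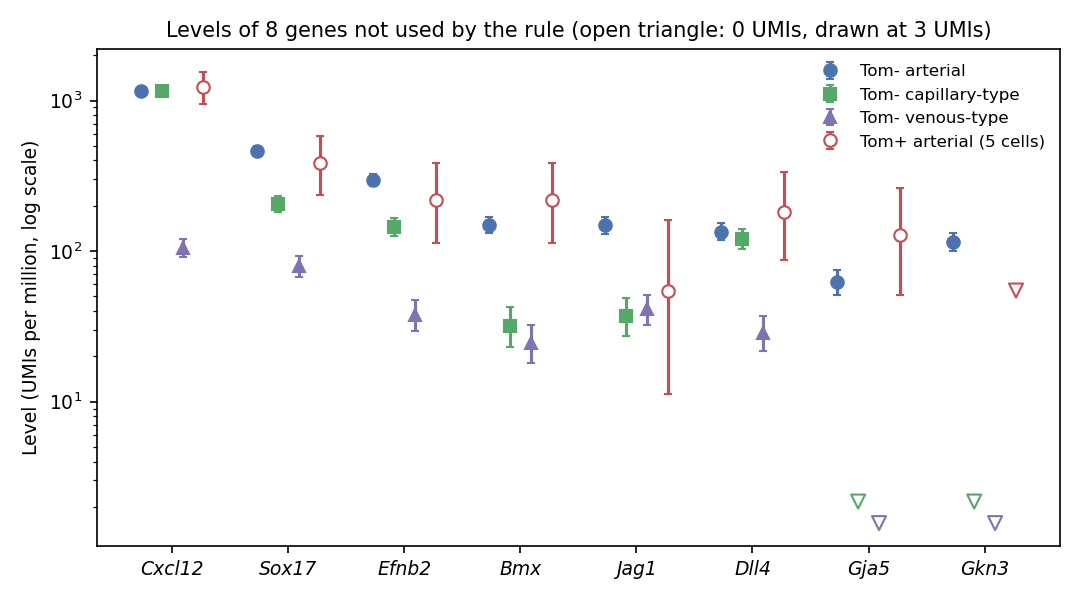
Levels (CPM, log scale, y axis) of 8 genes outside the rule (x axis) in Tom- arterial (filled circles), capillary-type (squares) and venous-type cells (triangles) and in the 5 Tom+ arterial cells (open circles); bars are exact Poisson 95% intervals and open triangles mark 0 UMIs, drawn at the level of 3 UMIs. Cxcl12 sits at 1166 CPM in arterial and 1164 CPM in capillary-type cells, whereas Gja5 and Gkn3 had no UMI in capillary-type or venous-type cells.

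Over all genes, 330 of 9226 measured genes (3.58%) were at least 2 times higher in Tom- arterial cells than in other Tom- blood endothelial cells and 215 (2.33%) were lower, on the scale of CPM + 1. A gene counted as measured with at least 10 CPM in 1 population and 20 UMIs over both. With median-of-ratios scaling the split was 257 higher and 253 lower. Without the cells rich in markers of other types it was 454 higher and 345 lower of 9027. The Tom+ library had too few arterial cells to rank genes, so the genes named here come from Tom- alone.

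The highest genes after Gja5 were Gkn3, a secreted gastrokine known from arterial endothelium (116 against 1.30 CPM, ratio 89.3, 37.6 to 278), and Nebl, an actin-binding nebulette (53.9 against 0.259 CPM, the latter 1 UMI, ratio 208, 36.4 to 8291). Col8a1, a short-chain collagen of vessel walls, was at 117 against 4.93 CPM, and Atp2a3, a calcium pump of the endoplasmic reticulum, at 115 against 5.19 CPM. These 4 stayed under 6 CPM in both venous-type and capillary-type cells. Ifi27l2a, S100a4 and Tmem100 followed with ratios of 12.3, 12.4 and 13.8, and Dkk2, a modulator of Wnt signalling, with 10.7. Cldn5, the tight-junction claudin, was at 1656 against 171 CPM, but it is one of the gate genes. Spock2, Rbp7, Scara3, Cytl1 and Fn1 completed the 15 highest with ratios between 6.44 for Cytl1 and 7.90 for Spock2. Cytl1 was not low in all other types, since venous-type cells held 78.0 CPM and capillary-type cells none. The ranking is within blood endothelium. The Tom- fibroblast class held more than arterial cells of Ifi27l2a (789 CPM), Fn1 (692 CPM), Col8a1 (149 CPM), Dkk2 (137 CPM) and Tmem100 (136 CPM). The rest of the 15 were lower there than in arterial cells. Tom- lymphatic cells held Cldn5 at 1594 CPM, Fn1 at 169 CPM and Ifi27l2a at 153 CPM.

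The lowest genes were those of venous endothelium. Selp, the P-selectin that captures leukocytes, was at 11.5 CPM in arterial, 511 CPM in venous-type and 5.79 CPM in capillary-type cells. Lrg1 was at 39.5, 795 and 106 CPM in the same order, and Ackr1 at 6.30, 199.7 and 2.89 CPM. Both Selp and Ackr1 helped define the venous-type cells, and capillary-type cells had to hold fewer than 2 UMIs of them together. Fgl2, Dusp2, Gem, Ptn, Bst1 and Pcdh7 were also among the lowest, with ratios between 0.0469 for Dusp2 and 0.195 for Pcdh7. Against capillary-type cells alone Fgl2 and Ptn were higher in arterial cells, by 0.26 and 0.66 on the log2 scale. Their place among the lowest therefore came from the venous-type cells. Selp and Ackr1 were also higher, by 0.88 and 0.91, but the definition of capillary-type cells held both down there. Of 16 measured venous markers, 11 were lower and none higher than in other blood endothelium, with a median log2 ratio of -1.41. Over all 9226 measured genes 2.33% were lower and 3.58% higher, with a median of 0.10. Selp and Ackr1 are among the 11. Against capillary-type cells 3 of 13 measured venous markers were lower and 2, Vcam1 and Bgn, were higher, with a median of -0.44. In that comparison 2.03% of all 9306 measured genes were lower and 3.44% higher.

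**Figure D3:**
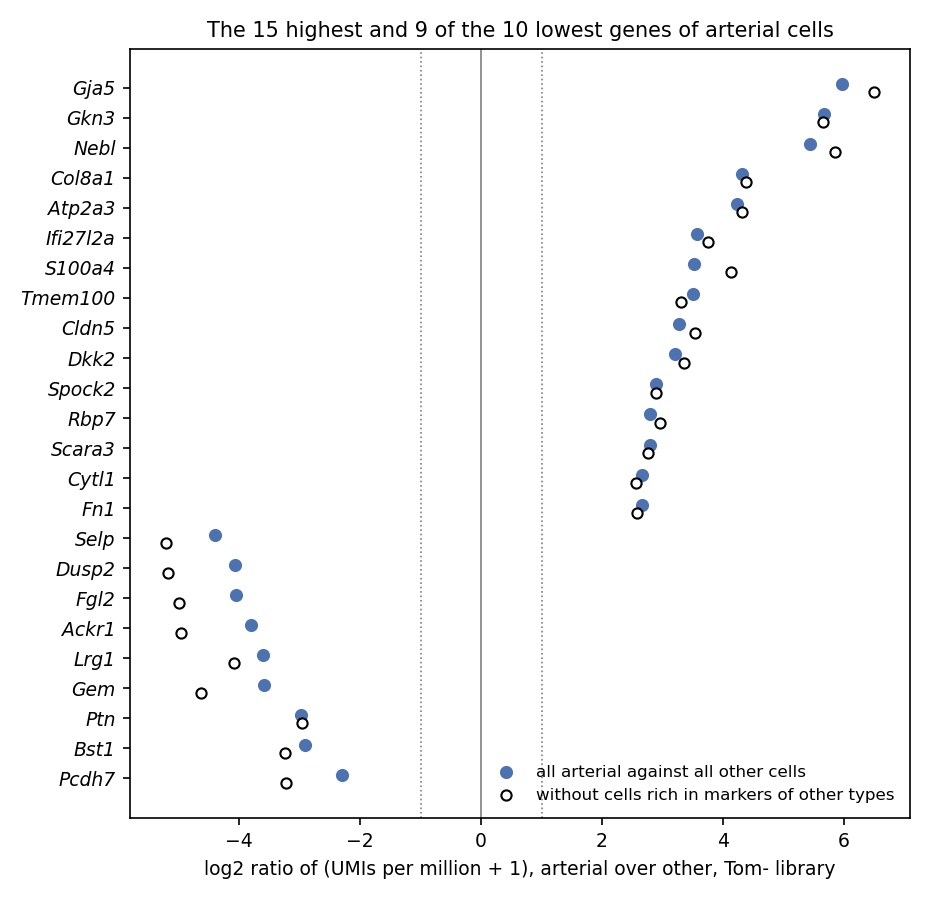
Log2 ratio of CPM + 1 in Tom- arterial over other Tom- blood endothelial cells (x axis) for the 15 highest and 9 of the 10 lowest genes (y axis); filled points use 155 against 381 cells, open points leave out the cells rich in markers of other cell types, and dotted lines mark 2 times. Every open point lies on the same side as its filled point, beyond the dotted line.

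The arterial identity list, 30 genes known from arterial endothelium in general, had 22 members at least 2 times higher and none lower, with a median log2 ratio of 1.55. Vegfc, a lymphatic and vascular growth factor, was at 91.1 CPM in arterial against 14.3 CPM in other cells (ratio 6.39, 4.67 to 8.85). Stmn2 was at 269.9 against 50.3 CPM, Clu, a secreted chaperone, at 851 against 209 CPM, and Unc5b, a netrin receptor, at 78.5 against 23.1 CPM. Mgp, Eln, Nrp1, Sat1, Bcam, Ltbp4, Mecom and 8430408G22Rik stayed under 2 times. Without cells rich in markers of other types 23 of 30 were higher, with Mecom and Ltbp4 gained and Crip1 lost (log2 0.99). Mgp, which keeps vessel walls free of calcium, was at 1656 CPM in arterial cells but at 1834 CPM in venous-type and 342 CPM in capillary-type cells, so it did not part arterial from venous. Against capillary-type cells 21 of 30 list members were higher, and against venous-type cells 24 of 30. Over all measured genes 3.44% of 9306 were higher and 2.03% lower than in capillary-type cells, and 7.30% of 9242 higher and 3.53% lower than in venous-type cells.

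Of 24 measured genes of the Notch list, 6 were higher and 2 lower than in other blood endothelium, with a median log2 ratio of 0.37. Beside these stand 3.58% higher and 2.33% lower over all 9226 measured genes, with a median of 0.10. Against capillary-type cells alone, Hey2 and Jag1 were the only 2 of 25 higher and none was lower, with a median of 0.16. In that comparison 3.44% of all 9306 measured genes were higher and 2.03% lower. Both kinds of ligand were among the higher ones. Jag1 was at 148 against 41.2 CPM (ratio 3.60, 2.94 to 4.41), Jag2 at 139 against 65.1 CPM and Dll4, the ligand of arterial specification, at 135 against 62.2 CPM (ratio 2.16, 1.80 to 2.60). Jag1 differed from Dll4 in where it was low: capillary-type cells held 36.9 CPM of Jag1 but 121 CPM of Dll4. The receptor Notch4 was at 90.5 CPM in arterial, 75.2 CPM in capillary-type and 5.72 CPM in venous-type cells, whereas Notch1 was at 229, 180.1 and 164 CPM. The targets Nrarp (84.2 against 40.7 CPM) and Hey2 (18.3 against 0.259 CPM, the latter 1 UMI) were higher, and Hes1 (303 against 264 CPM) was within 2 times. The 2 lower members were Lfng, a glycosyltransferase that modifies Notch (18.3 against 66.6 CPM, ratio 0.275, 0.184 to 0.398), and Dll1 (20.6 against 44.1 CPM). Without the cells rich in other markers the counts against other blood endothelium were again 6 higher and 2 lower of 24. Against capillary-type cells they were then 4 higher and 2 lower of 24, beside 4.11% and 3.04% of all 8677 measured genes.

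Among Tom- blood endothelial cells Hey2 had 32 UMIs in arterial cells and 1 in those without a rule UMI, so its promoter is shown with the word bound by Rbpj, the DNA-binding partner of Notch. The RefSeq window on the GRCm38.p6 build runs from 250 bases before to 50 after the gene's start, and its first 260 bases are at chr10:30842774-30843033 on the minus strand. Capitals mark CGTGGGAA and its reverse complement TTCCCACG, the only word searched, on both strands.
Hey2 promoter: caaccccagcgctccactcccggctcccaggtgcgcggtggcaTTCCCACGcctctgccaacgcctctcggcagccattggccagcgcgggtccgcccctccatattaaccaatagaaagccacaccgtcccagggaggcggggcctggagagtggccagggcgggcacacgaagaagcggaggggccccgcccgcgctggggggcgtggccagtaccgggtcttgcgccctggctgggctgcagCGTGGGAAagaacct
The matches lie at bases 44 to 51 and 246 to 253 of the window. The word was in 241 of 32851 windows of the same length (0.734%), and 4 windows (0.0122%) held 2 matches. Of the 33 arterial identity and rule genes, 25 were in the table with 35 windows, and the window of Hey2 was the only one of those 35 with the word. A match is a description of these letters and not a binding site.

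Of 29 measured endothelial transcription factors, Prdm16 (70.5 against 16.3 CPM), Sox17 (464 against 127 CPM) and Tox2 (13.2 against 3.89 CPM) were at least 2 times higher. The shares over all measured genes were 3.58% higher and 2.33% lower. Sox17 was at 206 CPM in capillary-type and 79.6 CPM in venous-type cells (ratios 2.25, 1.96 to 2.59, and 5.83, 4.90 to 6.98). Nr2f2, the factor of venous identity, was at 75.6 CPM in arterial and 332 CPM in venous-type cells and was lower, as was Meox1. Mecom, a factor of arterial cells, was at 390 against 207 CPM, short of 2 times. Without cells rich in markers of other types Mecom (log2 1.10) and Epas1 were also past 2 times, which made 5 of 30 higher, beside 5.03% of all 9027 measured genes.

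Of 12 measured gap junction and potassium channel genes, 6 were higher (none was lower), and their median log2 ratio was 1.01. For all 9226 measured genes the shares were 3.58% higher and 2.33% lower. Against capillary-type cells Gja5 and Kcnn3 were the 2 of 12 higher, with a median of 0.35, beside 3.44% of all 9306 measured genes. Kcnn3 and Kcnn4, the calcium-activated channels of endothelial hyperpolarization, were at 14.9 against 2.33 CPM and at 59.6 against 26.2 CPM, and Kcnj2, the inward rectifier, at 49.8 against 16.1 CPM. Kcnj8 (20.6 against 5.96 CPM) and Abcc9 (33.8 against 8.30 CPM), which form the channel of pericytes, are themselves members of the mural marker list. The mural markers were at 864 CPM together in arterial and 329.5 CPM in other Tom- cells. Without the cells rich in other markers neither gene was past 2 times (log2 0.40 and 0.48). In that setting 4 of 10 measured channel and gap junction genes were higher. Of 10 measured mural markers, 7 were higher with all cells, and 1 of 4 without those cells. The cells left out were picked in part by the mural markers, so these falls follow in part from the removal and show no source of the UMIs. Among 21 measured vasoactive genes, Gucy1b1, Npr3, Ddah1, Ace and Edn1 were higher. Npr3, the natriuretic peptide clearance receptor, was at 150.1 against 26.7 CPM (ratio 5.62, 4.46 to 7.13), Ace, the angiotensin-converting enzyme, at 125.5 against 52.1 CPM, and Edn1, the constrictor endothelin, at 352 against 173 CPM. Ptgs1, Aplnr and Npr1 were lower. In the cells left after that removal Gucy1b1 had too few UMIs to count as measured and Npr1 was just short of 2 times (log2 -0.99), while Ptgis was higher and Hrh1 and Adm were lower.

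Matrix genes were another group. Of 14 measured elastic fibre genes none was lower and 6 were higher: Fn1, Lox, Fbn1, Fbln5, Fbln2 and Ltbp1. Fbln5, which organizes elastic fibres, was at 177 against 59.4 CPM (ratio 2.98, 2.51 to 3.55), Fbn1, fibrillin, at 137 against 42.8 CPM and Lox, the crosslinking enzyme, at 26.9 against 3.63 CPM. Eln, elastin itself, was at 151 against 93.1 CPM. Without cells rich in markers of other types 6 of 13 were higher and Efemp1 was lower. Ltbp1 was then too low to count as measured, and Ltbp4 was past 2 times (log2 1.07). Of 18 measured basement membrane genes, Col8a1, Col18a1 (140.4 against 42.3 CPM) and Lama3 (66.5 against 24.6 CPM) were higher. Among all measured genes 3.58% were higher and 2.33% lower.

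Of 14 VEGF and angiopoietin genes, Vegfc and Esm1 were higher, and Nrp2 (68.8 against 244.5 CPM) and Aplnr lower. Of 18 TGF-beta and BMP genes, Bmp6, Tgfb2 and the inhibitory Smad7 (169 against 76.0 CPM) were higher and Bmp4 lower. Of 20 guidance genes, Efnb2, Unc5b, Sema7a (159 against 47.5 CPM) and Ntn4 were higher, and Sema6b and Nrp2 lower. Without cells rich in markers of other types Vegfa, Ltbp4 and Smad6 were also higher and Tgfbr3 was lower, for 3 of 14 VEGF genes and 5 of 17 TGF-beta and BMP genes higher. The shares over all measured genes were 3.58% higher and 2.33% lower with all cells, and 5.03% and 3.82% without those rich cells.

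Of 12 measured adhesion genes none was higher, and Icam1 (30.9 against 70.5 CPM), Sele and Selp were lower. For this and the lists that follow, the shares over all measured genes were 3.58% higher and 2.33% lower. Without cells rich in markers of other types they were 5.03% and 3.82%. Of 17 measured coagulation genes only Plat, the tissue plasminogen activator, was higher (130.1 against 24.1 CPM, ratio 5.39, 4.22 to 6.94), while F8, Tfpi, Cpe and Proser2 were lower. Procr and Serpine2 were lower too without cells rich in markers of other types, for 6 of 16. The 5 lower of 17 antigen presentation genes were Cd74, H2-Aa, H2-Eb1, H2-Ab1 and Nlrc5, the first 4 of the class II pathway, with Cd74 at 5.73 against 66.1 CPM. Of 28 interferon-stimulated genes, Isg15, Irf7, Ifit1, Ifitm1 and Ifit3 were higher and Irf8 lower. Ifitm1 was not past 2 times without cells rich in markers of other types (log2 0.11). Ifit1 was at 72.8 CPM in arterial and 66.5 CPM in capillary-type cells, and against capillary-type cells none of 27 measured members was past 2 times either way. In that comparison 3.44% of all 9306 measured genes were higher and 2.03% lower. Of 23 lipid genes, Rbp7 (161 against 22.3 CPM) was higher and Aqp1 (738 against 1837 CPM), Apoe, Car4 and Angptl4 lower. When the marker-rich cells were left out Fabp5, Aqp7 and Cd36 joined Rbp7, for 4 of 21 higher, and Vldlr was lower in place of Angptl4, which was too low to count as measured. Of 36 dissociation and immediate-early genes, 8 were lower and Hspa1a was higher, with a median log2 ratio of -0.36. With the marker-rich cells left out 13 of 36 were lower, with a median of -0.54. Socs3 was at 86.5 CPM in arterial, 179 CPM in capillary-type and 623 CPM in venous-type cells.

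The arterial cells were not uniform, and they were compared by whether they also held capillary genes, a split chosen after earlier results were known. In Tom-, 95 of 155 (61.3%) also held at least 2 UMIs of the 4 capillary rule genes and fewer than 2 venous UMIs. Another 6 held at least 2 venous UMIs (2 of them both), and 54 (34.8%) held neither. The 95 and the 54 are called cells with and without capillary UMIs below, although the 54 may hold 1. The median depths of the 95 and the 54 cells were 8165 and 7474 UMIs. Cells with capillary UMIs had more of the fatty acid transporter Cd36 (743 against 64.5 CPM, ratio 11.5, 8.21 to 16.7), the fenestral diaphragm gene Plvap (615 against 64.5 CPM) and the VEGF receptor Kdr (669 against 136 CPM). Cxcl12 went with them, at 1640 against 472 CPM (ratio 3.48, 3.05 to 3.98).

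Cells without capillary UMIs had more Mgp (4360 against 294 CPM), Cytl1 (1016 against 13.4 CPM), Vcam1, a leukocyte adhesion molecule (393 against 4.77 CPM), and Gkn3 (319 against 27.7 CPM). Jag1 (321 against 72.5 CPM), Bmx (277 against 80.2 CPM), Fbln5 (352 against 107 CPM) and Eln (267 against 99.2 CPM) were also higher in them. The rule genes did not share 1 direction: Sema3g was at 175 CPM with and 420.3 CPM without capillary UMIs, Gja4 at 126 and 315 CPM, and Hey1 at 209 and 118 CPM. Sox17 (462 and 564 CPM), Efnb2 (318 and 256 CPM), Dll4 (149.8 and 119.8 CPM) and Vwf (377 and 361 CPM) differed by less than 1.3 times. Among the 81 and 47 cells not rich in markers of other types the ratios were close to these, at 3.29 for Cxcl12 (2030 and 617 CPM), 0.0722 for Mgp and 0.0165 for Cytl1. Cxcl10, at 112 CPM in the cells without capillary UMIs, was seen in 1.85% of them.

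**Figure D4:**
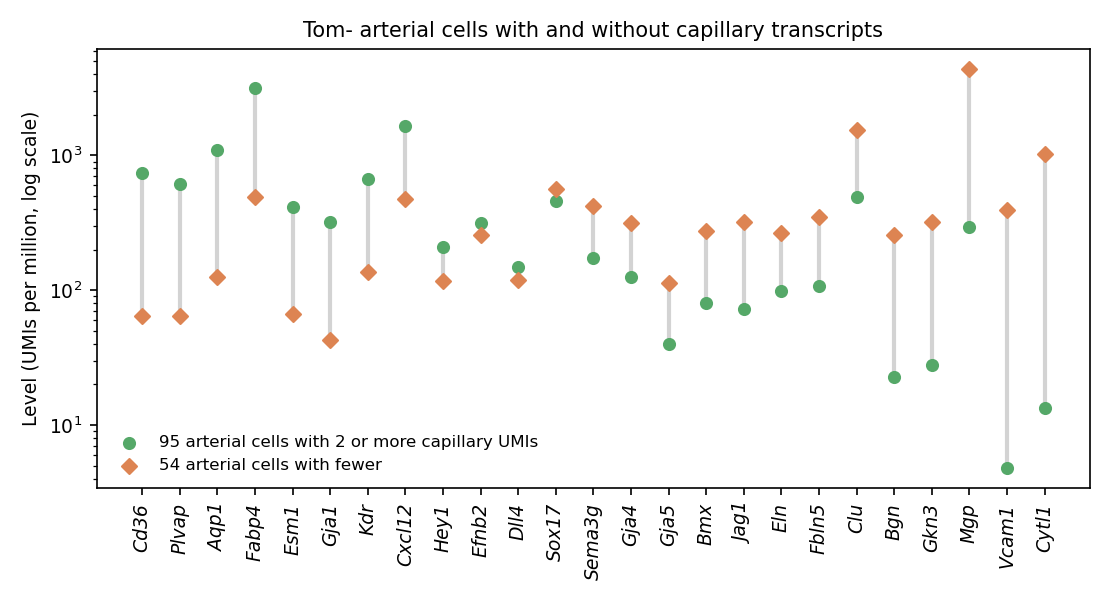
Levels (CPM, log scale, y axis) of 25 genes (x axis) in the 95 Tom- arterial cells with at least 2 capillary UMIs (circles) and the 54 with fewer (diamonds), both without a venous profile, joined by a grey line. Cd36, Plvap and Cxcl12 are higher in the circles, Mgp, Vcam1 and Cytl1 in the diamonds, and Sox17, Efnb2 and Dll4 nearly meet.

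Some of these genes rested on few cells. The 10 cells richest in Vcam1 held 89.6% of its UMIs in Tom- arterial cells, and for Cytl1, Gkn3 and Mgp the shares were 74.3%, 69.8% and 51.2%. For Cxcl12, Sox17 and Efnb2 they were 28.1%, 27.7% and 24.2%. Cxcl12 ranged from 0 to 127 UMIs per 10000 with a median of 9.91, and 137 of 155 cells held it. Mgp ranged from 0 to 235 with a median of 3.36. With rising rule UMIs in Tom-, Sox17 went from 127 CPM at 0 and 192 CPM at 1 to 245 CPM at 2, 548 CPM at 3 to 4 and 522 CPM at 5 or more. Cxcl12 had no such order, at 489, 1259, 1150.4, 2243 and 885 CPM.

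Clustering the 160 arterial cells without the rule genes gave 5 sub-clusters, numbered 0 to 4 by size, which are described by their leading genes and not named. Sub-cluster 1 (39 cells) was led by the lipid genes Aqp7, Lpl, Cd36 and Fabp4 and had the most Cxcl12, at 3001 CPM. Its mural markers were at 1678 CPM, with Rgs5 at 672 CPM. Sub-cluster 3 (25 cells) was led by Hey2, Lox, Bgn and Cytl1, with Mgp at 7153 CPM, Gja5 at 203 CPM and no Rgcc UMI, and had Cxcl12 at 233 CPM. Acta2 (904.5 CPM) and Tagln (889.5 CPM) of smooth muscle also led it, seen in 48.0% and 32.0% of its cells. Sub-clusters 1 and 3 were thus opposite in lipid genes, Mgp and Cxcl12 while their Sema3g levels were 268 and 563 CPM.

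Sub-cluster 2 (37 cells) was led by Nebl, Ifi27l2a, Scara3 and Spock2 and had the most Sox17, at 994 CPM. Sub-cluster 0 (49 cells) was led by 4 haemoglobin genes, then Slco1a4, Chst2, Esm1, Ctla2a and Aqp1, with Plvap at 1121 CPM and no Gkn3 or Cytl1 UMI. Its erythroid markers summed to 37057 CPM. Over all Tom- arterial cells these markers had a median of 5.82 per 10000 UMIs and a highest cell at 6552, and 6 cells were over 20. Sub-clusters 0 and 1, of which 43 and 37 cells held capillary UMIs, differed in Cd36 (19.2 and 2169 CPM) and Fabp4 (5.48 and 9392 CPM). Sub-cluster 4 (10 Tom- cells) had a median of 50054 UMIs, was led by epithelial genes such as Krt5, Ly6d and Foxq1 and held urothelial markers at 12614 CPM. Sub-cluster 4's cells met the rule but go against its name by their leading genes. Leaving these 10 out, with the other blood endothelial cells as they were, moved the genes at least 2 times higher from 330 to 530 and those lower from 215 to 559. The 5 Tom+ cells fell into sub-clusters 0, 1, 2 and 3.

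**Figure D5:**
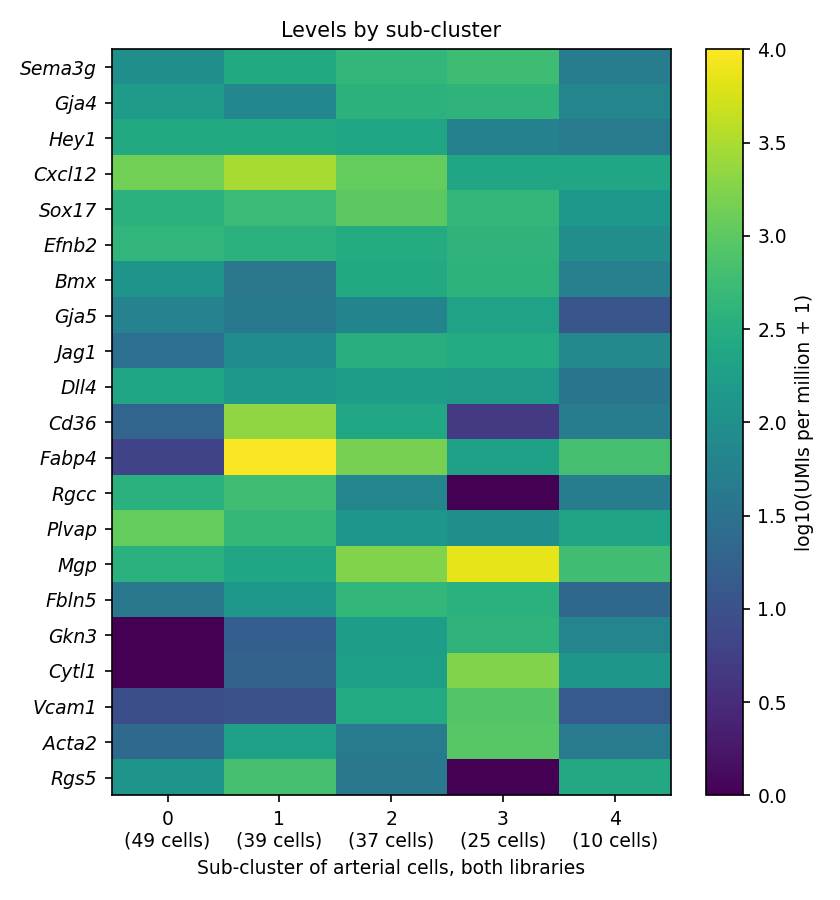
Levels, as log10 of CPM + 1 (colour), of 21 genes (rows) in the 5 sub-clusters of arterial cells (columns, with their cell counts), both libraries together. Sub-cluster 1 is bright for Cxcl12, Cd36 and Fabp4, sub-cluster 3 for Mgp and Cytl1 and dark for Rgcc, and sub-cluster 4, with epithelial leading genes, is low in the rule genes.

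The 5 Tom+ arterial cells had 6894, 5647, 8180, 10539 and 23576 UMIs, with 3, 3, 12, 46 and 3 UMIs of Cxcl12. Their pooled Cxcl12 level was 1222 CPM (947 to 1552), beside 1166 CPM in Tom-. That level rested on the cell with 46 of the 67 UMIs: without the richest cell in each library the log2 ratio of Tom+ to Tom- was -1.23 instead of 0.07. The same cell held Sema3g as its only rule gene. The cell with 23576 UMIs, whose barcode also occurred in Tom-, held all 6 UMIs of Acta2 and 116 of the 119 UMIs of Mgp. Without it the log2 ratio of Cxcl12 was 0.81.

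Across genes the Tom+ and Tom- arterial cells could hardly be compared at this depth. At least 2 times higher in Tom+ were 810 of 8584 measured genes (9.44%) and lower were 2569 (29.9%), against 0.256% and 1.64% of 8981 in other blood endothelium, where 140 and 381 cells were summed. By the naming rule the highest were Hrct1, Neurl3, Arntl, Reck, L1cam, Rasa4, Tigd2 and Pold3, on 6 to 13 Tom+ UMIs each. Hrct1 was at 201 against 14.3 CPM (ratio 14.0, 6.22 to 29.5) and Neurl3 at 237 against 20.6 CPM (ratio 11.5, 5.59 to 22.2). The 6 Tom+ UMIs of Reck all lay in 1 cell. The lowest, all with no Tom+ UMI, were Igfbp2, Fxyd3, Ndufs5, Idh1, Isg15, Dusp6, Caprin1 and Gkn3. Igfbp2 was at 530.5 CPM in Tom- arterial cells, but it was at 1842 CPM in the urothelial-marker sub-cluster 4 and at 23.6 CPM in the remaining arterial cells. The urothelial markers summed to 3741 CPM in Tom- arterial and 109 CPM in Tom+ arterial cells, and the erythroid markers to 8210 and 36.5 CPM. Ndufs5, a subunit of respiratory complex I seen in 72.9% of Tom- arterial cells, is left with a limit of 54.7 CPM in Tom+, against 171 CPM.

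Over all blood endothelium, several arterial genes were at lower levels in the Tom+ library. Tom- blood endothelial cells held Cxcl12 at 742 CPM and Tom+ ones at 308 CPM (ratio 0.415, 0.378 to 0.456). Tom- levels of each type, weighted by the share of UMIs each type had in Tom+, gave 464 CPM, which lies between the 2 measured levels. Within capillary-type cells Cxcl12 was at 1164 CPM in Tom- and 621.5 CPM (544 to 707) in Tom+. For Gja5 (19.3 and 4.31 CPM), Sox17 (229 and 131 CPM), Efnb2 (150.3 and 86.3 CPM), Bmx (65.7 and 39.5 CPM) and Dll4 (89.1 and 58.6 CPM) the same weighting gave 3.44, 130.3, 83.4, 33.5 and 61.3 CPM. The Tom+ level of Gja5 rests on 7 UMIs, 6 of them in 1 cell. Unc5b was at 40.3 CPM in Tom- but 13.6 CPM in Tom+, below the 23.7 CPM of the weighting. For Kdr (491 and 366 CPM) and Plvap (652 and 828 CPM) the weighting gave 438 and 714 CPM, between the measured levels. The arterial type was set by the rule genes, and the cause of these differences was not tested. Of 28 measured arterial identity genes, 6 were at least 2 times lower in Tom+ blood endothelium and none was higher, beside 2.04% and 0.299% of 9033 measured genes.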

How the data were processed

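Single-cell 3′ libraries of 2 sorts from 1 bladder were analysed. The matrices deposited by the authors hold whole-number UMI counts, not normalized, for 31054 features. Cell Ranger 7.0.0 and build mm10 were used per the submitters' processing notes, although the deposited file headers name version 3.0.2; other upstream steps are not given in the sources used here. Cells needed 1000 UMIs, 500 genes and under 15% mitochondrial UMIs. A barcode found in both libraries was kept only where its copy was over 10 times deeper. UMIs were summed per type and library and scaled to CPM, so that levels are relative to all RNA captured. With 1 library per sort no test was run: intervals are exact Poisson (levels), Clopper-Pearson (shares) and conditional binomial (ratios). Log2 ratios add 1 CPM. Doublets were kept, with Scrublet calls (8 Tom- arterial cells) left out as an alternative.

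Named genes were the 15 highest and 10 lowest for arterial cells, among genes that reached 50 CPM and 10% of cells in the higher population, and the 8 highest and 8 lowest for Tom+ with 100 CPM, a UMI in 20% of cells and 30 UMIs in all. Rule genes, ribosomal, mitochondrial and haemoglobin genes, other-type markers and genes under 5% of their level in another class were left out; that class check rests on fibroblast, urothelial, mural and erythroid cells, since 8 Tom- cells passed as mesothelial. Of the 10 lowest, 1 gene is not reported here. The rule, members and lists were chosen with earlier results of these data known. Sub-clusters used 2000 variable genes, 15 components, 15 neighbours and Leiden resolution 0.5. The scripts were tested on simulated counts. Software was Python 3.11.15, scanpy 1.11.5, leidenalg 0.10.2, scipy 1.17.1 and, for TMM scaling alone, edgeR 4.0.16. Gene coordinates came from a GENCODE annotation of GRCm38 and promoters from RefSeq.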

Additional observations from a re-analysis of the deposited data

How the results depend on the processing

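The arterial share of Tom- blood endothelium was 19.8% with 3 rule UMIs and 19.8% with 2 rule genes required, and between 23.1% and 28.7% under the other settings; the Tom+ share ranged from 2.50% to 4.58%. The Cxcl12 log2 ratio of arterial to other Tom- cells, 1.25, was 1.06 with 2 rule genes, 1.63 in cells of 5000 UMIs, 0.87 with the rule on thinned cells, 1.14 with TMM and 1.13 with median-of-ratios scaling, 0.88 with equal weight per cell, 0.00 (0.00256) against capillary-type and 3.45 against venous-type cells, and 1.64 without sub-cluster 4. The counts of 330 higher and 215 lower genes became 826 and 700 without a low-value filter, 136 and 78 at 50 CPM, 675 and 326 against venous-type cells, and 530 and 559 without sub-cluster 4; without cells rich in other markers 345 were lower. TMM and median-of-ratios scaling shifted all log2 ratios by -0.12 and -0.13, and those of Tom+ to Tom- arterial cells by -0.24 and -0.21. For Tom+ against Tom- arterial cells the Cxcl12 log2 ratio, 0.07, was 0.81 without shared barcodes, -1.30 with 3 rule UMIs, -1.10 with 2 rule genes, 0.64 on thinned cells and -1.23 without the richest cell. The counts of 810 and 2569 genes became 1504 and 6357 without a filter; 568 were lower at 50 CPM and 1223 higher without shared barcodes. Over all blood endothelium the Cxcl12 log2 ratio of -1.26 was -1.54 without Scrublet doublets and -1.08 without shared barcodes, settings applied to this result after seeing the data, as were those for sub-cluster 4, the gate without Cldn5 and keeping all shared barcodes. Of the named genes' values, 371 of 375 for arterial against other cells kept their direction. The 4 exceptions, all against capillary-type cells, were Selp (0.88), Fgl2 (0.26), Ackr1 (0.91) and Ptn (0.66). Capillary-type cells were defined by few Selp and Ackr1 UMIs, so the exceptions of these genes follow in part from that definition. For Tom+ against Tom-, 187 of 192 kept it; the exceptions were Reck (-4.09 without shared barcodes, -4.11 on thinned cells, -3.95 without the richest cell), L1cam (-4.82) and Pold3 (-0.17), both on thinned cells. The causes were not tested. No paired analysis was possible because each sort has 1 library. The 54836 UMIs of Tom+ arterial cells limit detection there to 54.7 CPM.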
